A study of Mus musculus with 16 samples.

Results

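The 10 genes described here encode enzymes that build triglyceride from glycerol 3-phosphate and fatty acyl-CoA in liver: Gpam, Gpat4, Agpat2, Agpat3, Lpin1, Lpin2, Lpin3, Dgat1, Dgat2 and Mogat1. They were chosen by name, all 10 were found by symbol among the 27446 entries of the deposited table, and all 10 passed the filter on low counts. RNA of 16 livers of wild-type C57BL/6 mice was sequenced in bulk. The 8 emodin livers came from mice given emodin, an anthraquinone of rhubarb, at 400 mg/kg into the stomach for 3 weeks in a carrier of 0.5% CMC-Na (sodium carboxymethyl cellulose), and the 8 vehicle livers from mice given the carrier alone. The comparison asks how the liver responds to a dose that the series title ties to hepatotoxicity. Age and sex of the mice are not given in the sources used here, nor whether each library came from its own mouse, so p-values measure the spread between libraries, each taken as 1 liver. In bulk liver RNA, fewer cells of a type and less RNA per cell cannot be told apart.

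In the glycerol phosphate pathway, a glycerol-3-phosphate acyltransferase adds the first fatty acid, an acylglycerol-phosphate acyltransferase adds the next to give phosphatidic acid, a lipin removes the phosphate to give diacylglycerol, and a diacylglycerol acyltransferase adds the last fatty acid. Monoacylglycerol acyltransferases enter at diacylglycerol by another route, best known from the intestine. Diacylglycerol and phosphatidic acid also feed the synthesis of phospholipids. In liver, the product is stored in lipid droplets or loaded onto very low density lipoprotein (VLDL).

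None of the 10 mRNAs passed the test for a difference between emodin and vehicle livers. With edgeR's quasi-likelihood test and Benjamini-Hochberg adjusted p-values over 14308 entries, 0 of 10 were called (adjusted p from 0.224 to 0.813), against 13.2% of all entries tested, of which 7.7% were higher and 5.47% lower with emodin. At an unadjusted p under 0.05 the count was also 0 in edgeR, in DESeq2 and in limma voom with quality weights. Of all 14308 entries tested, 4249 had an unadjusted p under 0.05 in edgeR. Log2 fold changes (emodin over vehicle) ran from -0.35 for Mogat1 to 0.20 for Lpin3, 4 above 0 and 6 below, with a median of -0.060 against 0.012 over all entries tested. The 95% interval of the fold change lay within 2-fold either way for 9 of the 10 genes. For Mogat1, the rarest, it ran from 0.494 to 1.25.

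**Figure D1:**
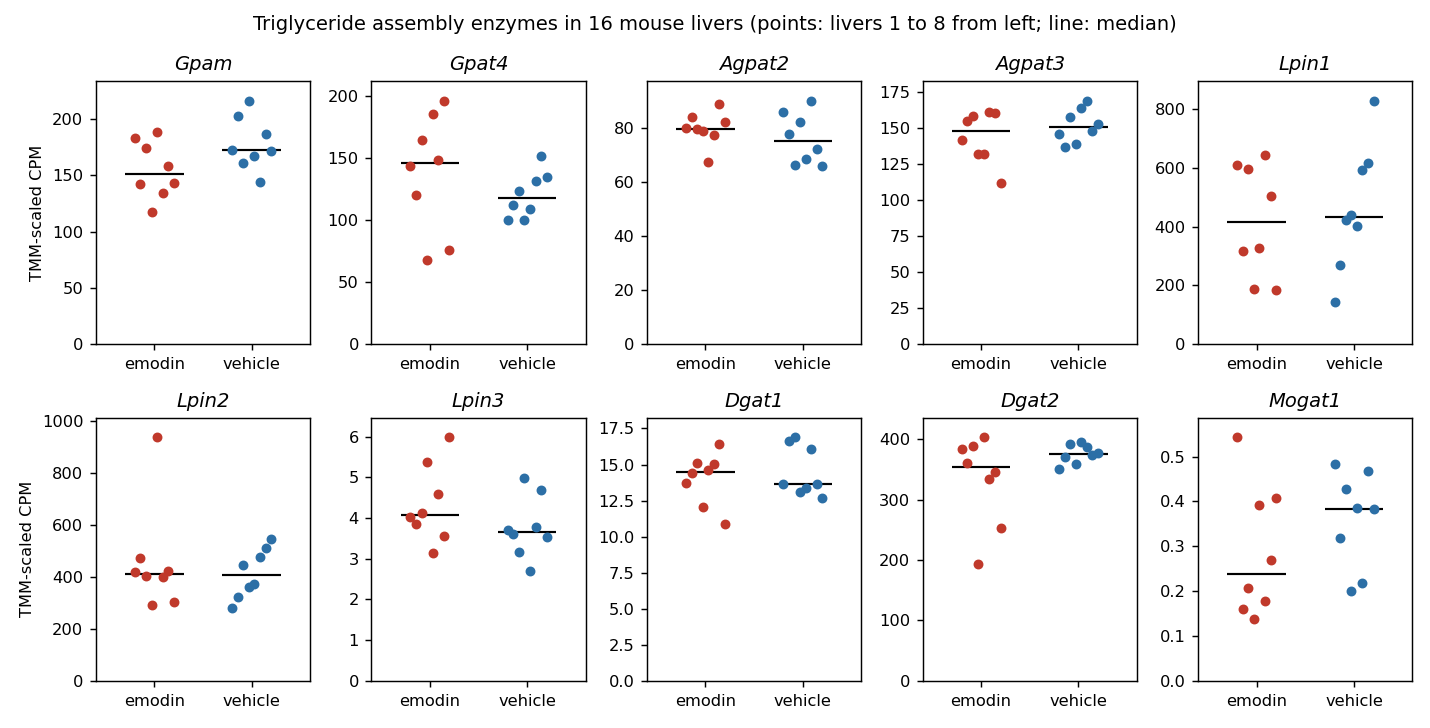
TMM-scaled CPM (counts per M, mega, counts of the scaled library) of each of the 10 enzyme mRNAs in 8 emodin and 8 vehicle livers; points are livers 1 to 8 from left to right and lines are medians. The groups overlap in every panel. Dgat2 runs from 194 to 403 CPM in emodin livers and from 351 to 396 CPM in vehicle livers.

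Promoter windows of the lipins are shown because these 3 genes share a step while their mRNAs varied differently between livers. The windows are RefSeq's on GRCm38.p6 (mm10), from 250 bases before to 50 after the most upstream RefSeq start, and 7 of the 10 genes had a window (Gpam, Agpat2, Agpat3, Lpin1, Lpin2, Lpin3 and Mogat1). Capitals mark CACGTG, an E-box bound by clock, USF and ChREBP factors, and TGTTCT or its complement AGAACA, the core of the glucocorticoid receptor's binding sequence. Both strands were searched.
Lpin1, chr12:16610917-16611216, minus strand: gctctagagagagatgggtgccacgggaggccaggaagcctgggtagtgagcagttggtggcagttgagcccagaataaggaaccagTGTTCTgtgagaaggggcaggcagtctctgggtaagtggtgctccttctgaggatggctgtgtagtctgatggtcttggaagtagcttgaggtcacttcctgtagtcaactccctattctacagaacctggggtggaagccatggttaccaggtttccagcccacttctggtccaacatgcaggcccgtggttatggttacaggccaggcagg
Lpin2, chr17:71183282-71183581, plus strand: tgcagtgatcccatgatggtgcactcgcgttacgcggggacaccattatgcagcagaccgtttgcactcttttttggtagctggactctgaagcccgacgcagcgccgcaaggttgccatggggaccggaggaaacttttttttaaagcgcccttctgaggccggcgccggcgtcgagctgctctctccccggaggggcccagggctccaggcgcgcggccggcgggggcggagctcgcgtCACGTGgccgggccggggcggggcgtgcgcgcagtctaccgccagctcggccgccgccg
Lpin3, chr2:160880420-160880719, plus strand: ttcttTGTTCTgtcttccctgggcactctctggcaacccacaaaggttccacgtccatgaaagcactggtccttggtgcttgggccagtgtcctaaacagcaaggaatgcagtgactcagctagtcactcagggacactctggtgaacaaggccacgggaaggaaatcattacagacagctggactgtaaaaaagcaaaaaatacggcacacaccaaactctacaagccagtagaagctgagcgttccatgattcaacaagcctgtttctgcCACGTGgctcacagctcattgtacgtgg
The Lpin1 window held 1 TGTTCT and 0 CACGTG, the Lpin2 window 1 CACGTG and 0 TGTTCT, and the Lpin3 window 1 of each. Windows at other RefSeq starts are not printed: of 2 for Lpin2, 1 held a TGTTCT and neither a CACGTG, and 1 for Lpin3 held neither motif, so the contents differ by start as well as by gene. CACGTG occurs in 2349 (7.15%) and TGTTCT in 6233 (18.97%) of all 32851 promoter windows of this length. Neither match is thus particular to these genes, and how often both fall in 1 window was not counted.

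Compared per length, as CPM per kb of annotated exon (union of all exons in GENCODE M21), Dgat2 was the most abundant of these mRNAs in both groups, at 108 ± 23.7 in emodin and 122 ± 5.06 CPM per kb in vehicle livers (mean ± SD, n = 8 each here and below). Lpin1, Agpat2, Lpin2, Gpam, Agpat3 and Gpat4 followed in the vehicle livers, with means between 48.1 and 18.0 CPM per kb. Each of these 6 overlapped its neighbour in the order over the vehicle livers, and in emodin livers Gpat4 (20.6 CPM per kb) stood before Agpat3 (18.5 CPM per kb). Dgat1 was at 4.59 ± 0.586 in emodin and 4.75 ± 0.561 CPM per kb in vehicle livers, Lpin3 at 1.17 ± 0.256 and 1.02 ± 0.203, and Mogat1 at 0.184 ± 0.0933 and 0.231 ± 0.0687. The gap below Gpat4 and those between Dgat1, Lpin3 and Mogat1 were wider than the spread of both groups. With the longest transcript as the length, Lpin2 stood above Agpat2 in both groups and above Lpin1 in emodin livers (81.0 against 75.4 CPM per kb).

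**Figure D2:**
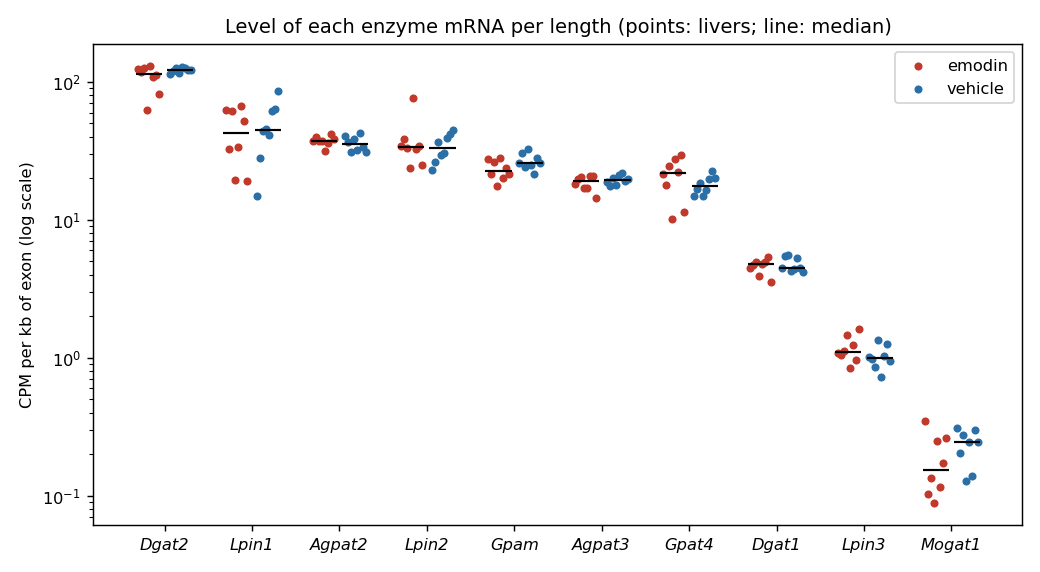
CPM per kb of exon on a log axis for the 10 mRNAs in emodin and vehicle livers; points are livers and lines are medians. Dgat2 leads, with means of 108 CPM per kb in emodin and 122 in vehicle livers, and Mogat1 is last, with means of 0.184 in emodin and 0.231 in vehicle livers.

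The first step is catalysed by GPAT1, the product of Gpam on the outer mitochondrial membrane, and by GPAT4 of the endoplasmic reticulum. Gpam (chromosome 19, 55067268 to 55127238) ran from 117 to 188 CPM in emodin livers, with a median of 151, and from 144 to 217 CPM in vehicle livers, with a median of 173. In 4 of 8 emodin livers it lay below every vehicle liver, but the groups overlapped and the log2 fold change of -0.20 ± 0.11 (± SE) did not pass (edgeR adjusted p = 0.224). It had the smallest p of the 10. Gpat4 (chromosome 8, 23171265 to 23208346) ran from 67.4 to 196 CPM in emodin livers, with a median of 146, and from 99.6 to 152 CPM in vehicle livers, with a median of 117. Emodin livers lay on both sides of the vehicle range: emodin 3, 5 and 7 were above it at 165, 185 and 196 CPM, and emodin 4 and 8 below it at 67.4 and 75.8 CPM. The log2 fold change was 0.20 ± 0.19 (edgeR adjusted p = 0.525).

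Emodin 4 and 8 also had the highest library scaling factors (1.13 and 1.16, against 0.929 to 1.04 in the other 14 livers) and high acute phase and interferon mRNAs: Saa1 was at 3218 and 2378 CPM there, and Isg15 at 250 and 208 CPM. High values were not particular to these livers: emodin 2 had 4254 CPM of Saa1 and 67.5 CPM of Isg15, and emodin 5 had 1166 and 117 CPM, while their Gpat4 was at 120 CPM, within the vehicle range, and at 185 CPM, above it. The part of these mRNAs and of the scaling in the result was not tested. With both emodin 4 and 8 left out, a choice made after the data were seen, Gpat4 rose by 0.42 on the log2 scale (edgeR adjusted p = 0.0337), against adjusted p from 0.247 to 0.730 over its 23 other alternatives, and it was then the 1 gene of the 10 that passed. As these 2 livers held the lowest Gpat4 values, leaving them out raises its mean by construction. The count ratio of Gpam to Gpat4 in a liver does not depend on library scaling. It ran from 0.808 to 1.89 in emodin livers, with a median of 1.12, and from 1.10 to 2.16 in vehicle livers, with a median of 1.42. The mean log2 ratio was 0.25 ± 0.43 in emodin and 0.57 ± 0.33 in vehicle livers, a difference of -0.32 (exact two-sided permutation p = 0.114, adjusted p = 0.230 over 3 ratios). Emodin 4 and 8 held the 2 highest ratios of the emodin livers, 1.74 and 1.89, so leaving out either makes the difference larger by construction. It was -0.42 without emodin 8 (exact two-sided permutation p = 0.0368, unadjusted) and -0.53 without both.

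Of the acyltransferases of the next step, Agpat2, whose loss causes generalized lipodystrophy in humans, varied little. It ran from 67.4 to 89.1 CPM in emodin livers, with a median of 79.8, and from 66.1 to 90.3 CPM in vehicle livers, with a median of 75.1, so all 8 emodin livers lay within the vehicle range. Its log2 fold change was 0.07 ± 0.08 (edgeR adjusted p = 0.604), and the 95% interval of the fold, 0.935 to 1.17, was among the narrowest of the 10 genes. Agpat2 shares 64 exon bases (3.0% of its exon length) with Egfl7 on the other strand, and whether the counting used strand is not stated. Agpat3, which also acylates lysophospholipids, ran from 112 to 161 CPM in emodin livers, with a median of 148, and from 137 to 169 CPM in vehicle livers, with a median of 151. Emodin 4, 5 and 8 lay below every vehicle liver, and the log2 fold change was -0.07 ± 0.08 (edgeR adjusted p = 0.577).

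Lipins are phosphatidate phosphatases, and Lpin1, mutated in the fatty liver dystrophy mouse, also encodes a transcriptional coactivator of fatty acid oxidation genes. Lpin1 (chromosome 12, 16535669 to 16610966) ran from 185 to 644 CPM in emodin livers, with a median of 415, and from 144 to 829 CPM in vehicle livers, with a median of 432. The vehicle livers thus spanned 5.76-fold, from vehicle 1 to vehicle 8, and all emodin livers, which spanned 3.49-fold, lay within that range. Its log2 fold change was -0.14 ± 0.34 (edgeR adjusted p = 0.813), and the 95% interval of the fold ran from 0.552 to 1.48. The SD of its log2 CPM (prior count of 2) between vehicle livers was 0.79, larger than for 94.0% of all entries tested. In emodin livers it was 0.74. Among emodin livers, Lpin1 was at 609, 596, 644 and 504 CPM in emodin 1, 3, 6 and 7 and at 317, 189, 326 and 185 CPM in emodin 2, 4, 5 and 8. Isg15 was at 5.35, 5.14, 7.15 and 5.01 CPM in emodin 1, 3, 6 and 7, and at 67.5, 250, 117 and 208 CPM in emodin 2, 4, 5 and 8, so the 4 emodin livers with the lower Lpin1 were those with the higher interferon-induced mRNA. Vehicle 1 had a lower Lpin1 than any of these at an Isg15 of 3.63 CPM. Other mRNAs split the emodin livers in the same way. In emodin 2, 4, 5 and 8 Saa1 ran from 1166 to 4254 CPM and Plin2 from 619 to 807 CPM. In emodin 1, 3, 6 and 7 Saa1 ran from 61.4 to 395 CPM and Plin2 from 164 to 242 CPM. The split was thus not particular to interferon-induced mRNA, and its relation to Lpin1 was not tested.

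Across the 8 vehicle livers, Lpin1 varied together with Pck1, the gluconeogenic enzyme PEPCK, and with Fkbp5, a chaperone gene induced by glucocorticoids. Vehicle 1 was lowest in all 3 mRNAs, at 144 CPM of Lpin1, 2351 CPM of Pck1 and 26.4 CPM of Fkbp5, and vehicle 8 held 829, 4188 and 150 CPM. Of 12 genes of fasting, the clock and glucocorticoid response set against Lpin1 on the log2 CPM scale, a comparison added after the data were seen, Pck1 had the highest Pearson r (0.98, exact permutation p = 0.000149, adjusted p = 0.00179; Spearman rho 0.952, exact permutation p = 0.00114, adjusted p = 0.0137). Without the 2 livers farthest from the median of Pck1, vehicle 1 and 8, r was 0.930. Fkbp5 had an r of 0.969 (exact permutation p = 0.000546, adjusted p = 0.00327) and a rho of 0.857 (exact permutation p = 0.0107, adjusted p = 0.0615), and r was 0.857 without vehicle 1 and 2. Both relations kept their sign without those livers. None of the other 10 genes passed after adjustment, and no batch is given in the labels within which the relations could be recomputed. In these 10 genes r went both ways, from -0.432 for Dbp to 0.694 for Fgf21. It was -0.330 for G6pc, 0.146 for Per1 and 0.562 for Tsc22d3. In all 3 mRNAs vehicle 1 and 2 were the lowest and vehicle 6, 7 and 8 the highest, so the values followed the livers' numbers in the labels. What the numbers stand for is not given in the sources used here, the p-values take the livers as exchangeable, and the part of any order of handling was not tested. In emodin livers, which fell apart into 2 sets by Isg15, no r was computed. There Fkbp5 was nearly level, from 148 to 181 CPM against 26.4 to 156 CPM in vehicle livers, while Lpin1 ran over its whole range. Emodin 5 combined the highest Pck1 of all livers, 4868 CPM, with a Lpin1 of 326 CPM.

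**Figure D3:**
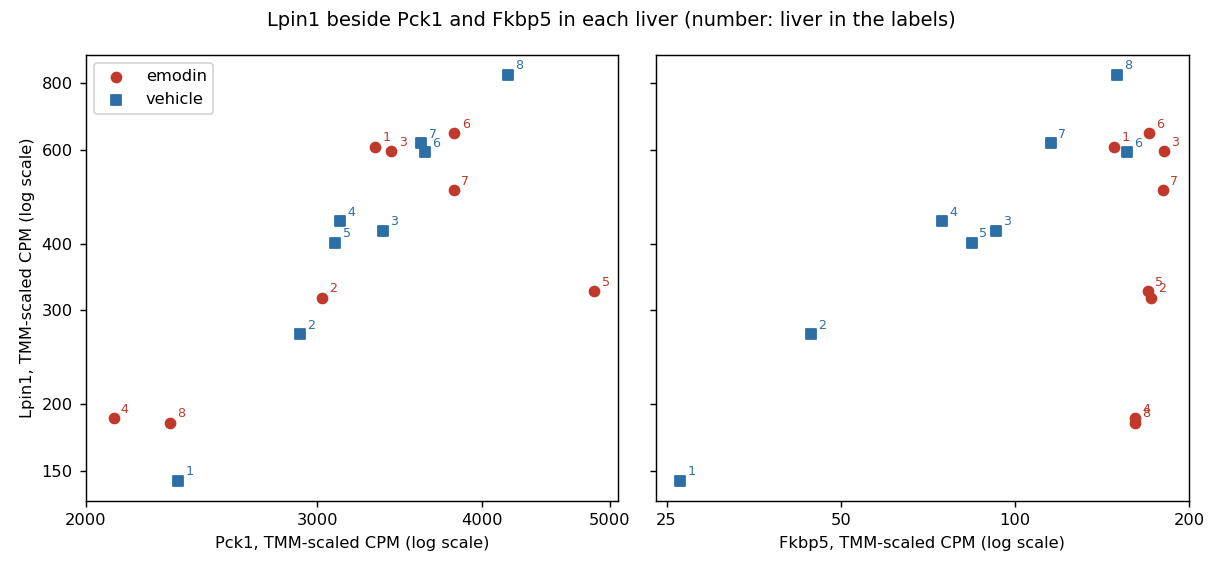
Lpin1 against Pck1 (left) and Fkbp5 (right), all in TMM-scaled CPM on log axes, for each emodin and vehicle liver; numbers are the livers' numbers in the labels. Vehicle livers lie along a rising line from vehicle 1 (144 CPM of Lpin1) to vehicle 8 (829 CPM), whereas emodin livers share an Fkbp5 between 148 and 181 CPM at Lpin1 values from 185 to 644 CPM.

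Lpin2, whose human counterpart is mutated in Majeed syndrome, is the other abundant lipin of liver. It ran from 292 to 939 CPM in emodin livers, with a median of 412, and from 283 to 546 CPM in vehicle livers, with a median of 409. Emodin 5 alone lay above the vehicle range, at 939 CPM against 475 CPM in the next emodin liver. The log2 fold change was 0.14 ± 0.21 (edgeR adjusted p = 0.697) and turned to -0.096 without emodin 5. Lpin3, the rarest lipin, ran from 3.13 to 5.99 CPM in emodin livers, with a median of 4.07, and from 2.70 to 4.99 CPM in vehicle livers, with a median of 3.67. Emodin 4 and 8 were above every vehicle liver, the same livers that were lowest in Lpin1 among the emodin group, and the log2 fold change of Lpin3 was 0.20 ± 0.15 (edgeR adjusted p = 0.396). Of the lipin level per kb, Lpin1 made up 30.3 to 66.3% in emodin livers, with a median of 52.3%, and 38.2 to 65.3% in vehicle livers, with a median of 58.3%. These shares depend on the length used, here the union of exons. With the longest transcript, mean Lpin2 was above mean Lpin1 in emodin livers (81.0 against 75.4 CPM per kb) and below it in vehicle livers (73.6 against 83.4). The count ratio of Lpin2 to Lpin1 had a median of 1.17 in emodin and 0.877 in vehicle livers, and the mean log2 ratios, 0.18 ± 0.80 and -0.03 ± 0.48, differed by 0.21 (exact two-sided permutation p = 0.528, adjusted p = 0.528 over 3 ratios).

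The last step is carried out by DGAT1 and DGAT2, proteins of unrelated sequence. Dgat2 (chromosome 7, 99153658 to 99182719) ran from 194 to 403 CPM in emodin livers, with a median of 353, and from 351 to 396 CPM in vehicle livers, with a median of 375. The vehicle livers lay close together, spanning 1.13-fold, whereas the emodin livers spanned 2.08-fold: emodin 4 and 8 had 194 and 253 CPM, emodin 6 and 7 lay just below the vehicle range at 334 and 346 CPM, and emodin 5 just above it at 403 CPM. The log2 fold change was -0.17 ± 0.12 (edgeR adjusted p = 0.362), and -0.016 without emodin 4 and 8. The SD of its log2 CPM was 0.37 in emodin and 0.06 in vehicle livers, a ratio of 6.09, against a median ratio of 1.31 over all entries tested, of which 0.608% had a larger one. Of the 10 genes Gpat4 came next, with SDs of 0.57 in emodin and 0.22 in vehicle livers and a ratio of 2.66. Over all entries tested the median SD was 0.31 in emodin and 0.21 in vehicle livers, and 1.21% had a smaller vehicle SD than Dgat2. The ratio of Dgat2 thus rests largely on its small spread in vehicle livers. These ratios are descriptions of genes picked after their values were seen, and no test of spread was made.

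Dgat1 (chromosome 15, 76502015 to 76511953) ran from 10.9 to 16.4 CPM in emodin livers, with a median of 14.5, and from 12.7 to 16.9 CPM in vehicle livers, with a median of 13.7. Emodin 4 and 8 were again below every vehicle liver, and the log2 fold change was -0.05 ± 0.09 (edgeR adjusted p = 0.768). Dgat2 made up 94.1 to 96.5% of the level per kb of both genes in emodin livers and 95.7 to 96.7% in vehicle livers. The count ratio of Dgat2 to Dgat1 had a median of 24.1 in emodin and 26.5 in vehicle livers, and the mean log2 ratios, 4.54 ± 0.26 and 4.70 ± 0.16, differed by -0.16 (exact two-sided permutation p = 0.154, adjusted p = 0.230 over 3 ratios). Mogat1, which makes diacylglycerol from monoacylglycerol and is known to rise in fatty livers of obese mice, was close to the limit of detection, at 0.138 to 0.543 CPM in emodin livers, with a median of 0.239, and 0.201 to 0.484 CPM in vehicle livers, with a median of 0.384. Each liver held 6 to 19 estimated counts of it, and its log2 fold change was -0.35 ± 0.32 (edgeR adjusted p = 0.495). It shares 200 exon bases (12.8% of its exon length) with BC035947 on the other strand, so its value is uncertain.

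**Figure D4:**
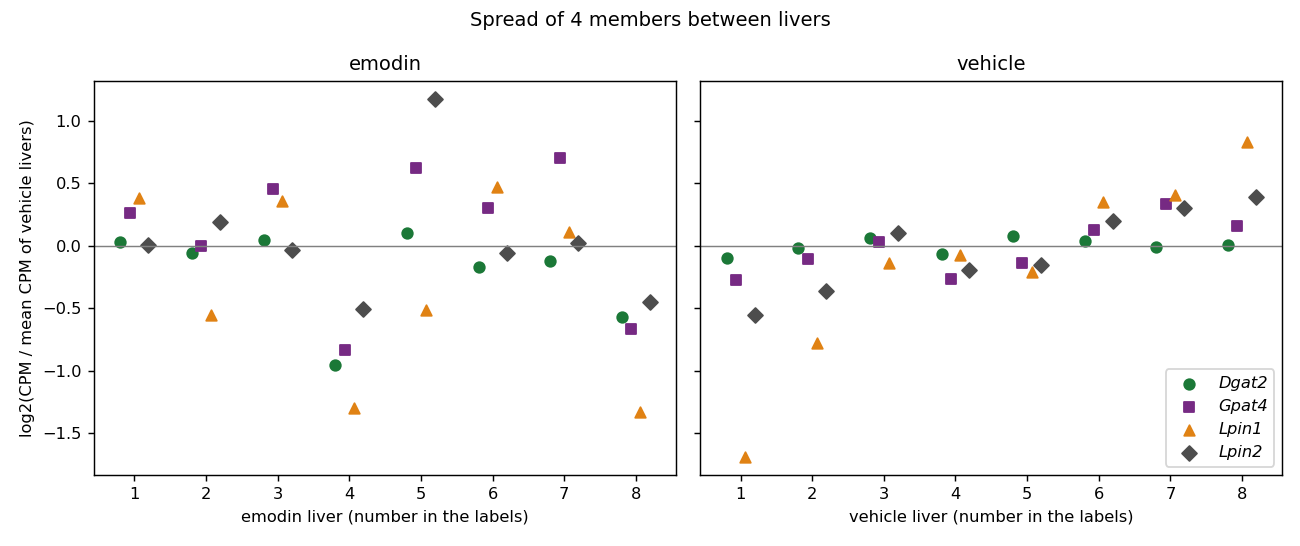
Log2 of the CPM over the mean of vehicle livers for Dgat2, Gpat4, Lpin1 and Lpin2 in each emodin (left) and vehicle (right) liver. Dgat2, Gpat4 and Lpin1 are low in emodin 4 and 8, Lpin2 is high in emodin 5 (939 CPM), and Lpin1 spreads widely in vehicle livers while Dgat2 stays within 351 to 396 CPM.

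Among 14 further genes of the same steps, 13 were tested, of which 2 rose, 1 fell and 10 did not pass (median log2 fold change -0.13). Gpat3, the other glycerol-3-phosphate acyltransferase of the endoplasmic reticulum and not among the 10, rose 3.95-fold. It ran from 4.76 to 39.9 CPM in emodin livers, with a median of 14.1, and from 1.94 to 5.81 CPM in vehicle livers, with a median of 3.99, and every emodin liver but emodin 6 exceeded the vehicle range. The change, 1.98 ± 0.41 on the log2 scale (adjusted p = 0.00749 by edgeR), stayed past the threshold in each alternative, down to 1.30. Emodin 5 was highest at 39.9 CPM, and emodin 2, 4, 7 and 8 held 14.0 to 23.4 CPM. Emodin 1 and 3 exceeded the vehicle range only narrowly, at 6.20 and 6.01 CPM. Emodin 2, 4, 5 and 8 were the livers with the higher Isg15. Emodin 7, at 15.8 CPM of Gpat3, had an Isg15 of 5.01 CPM, and the relation was not tested. Plpp2, a phosphatase of lipid phosphates, rose by 0.48 ± 0.12 on the log2 scale (edgeR adjusted p = 0.0158), and Plpp3, of the same family, fell by 0.33 ± 0.11 on that scale (edgeR adjusted p = 0.0436), though its call was lost in 12 of 16 fits that left out 1 liver. The genes that supply glycerol 3-phosphate, Gpd1 and Gk, had log2 fold changes of -0.12 ± 0.10 and -0.19 ± 0.12 (edgeR adjusted p = 0.484 and 0.302).

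**Figure D5:**
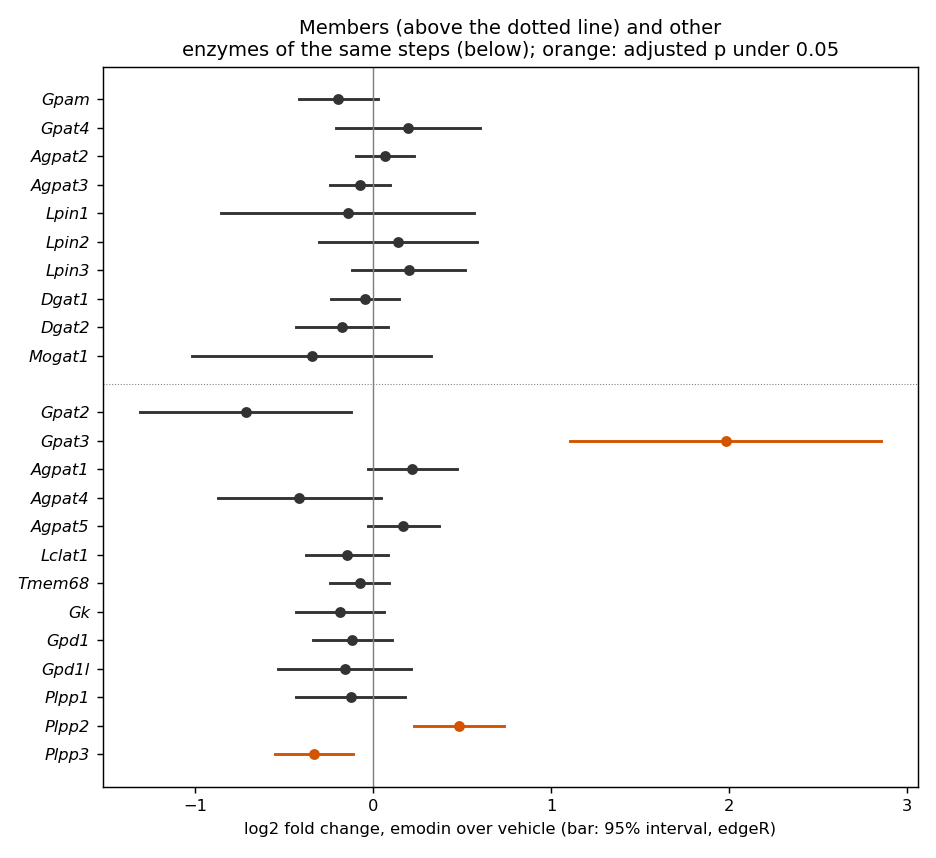
Log2 fold change, emodin over vehicle, with its 95% interval from edgeR for the 10 enzyme genes (above the dotted line) and 13 other tested genes of the same steps (below it); orange marks an adjusted p under 0.05. The 10 lie between -0.35 and 0.20 with intervals across 0, and Gpat3 stands apart at 1.98.

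Over 5 lists of neighbouring genes (66 genes, 65 tested), the same-step list included, 11 passed, 4 higher and 7 lower, or 16.9% against 13.2% of all entries. Of 10 genes of fatty acid uptake and activation, 3 fell and 0 rose (median -0.35). The 3 that fell encode acyl-CoA synthetases, as does Acsl4 of the same list, which did not pass (log2 fold change 0.18 ± 0.14, edgeR adjusted p = 0.423). Acsl5 was at 286 ± 65.3 in emodin and 429 ± 39.8 CPM in vehicle livers (log2 fold change -0.58 ± 0.12, edgeR adjusted p = 0.00712), Acsl3 at 19.7 ± 3.22 and 25.4 ± 3.12 CPM (-0.37 ± 0.10, 0.0246, a call lost without vehicle 1 or vehicle 8), and Acsl1 at 486 ± 177 and 773 ± 125 CPM (-0.67 ± 0.21, 0.0453, a call lost in 12 of 16 fits that left out 1 liver). In the phospholipid branch, 1 of 19 rose and 2 fell (median -0.0025). Etnk2, an ethanolamine kinase, rose by 0.54 ± 0.11 on the log2 scale (edgeR adjusted p = 0.00688), whereas Selenoi and Cept1, whose products use diacylglycerol to make phosphatidylethanolamine, fell by 0.44 ± 0.09 and fell by 0.30 ± 0.08 (edgeR adjusted p = 0.00478 and 0.0208). The call of Cept1 was lost without emodin 4 and 8 (-0.26, edgeR adjusted p = 0.0647).

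Of 15 regulators, 1 rose and 1 fell (median -0.088). Scap, the escort protein of the lipogenic factor SREBP, fell by 0.50 ± 0.14 on the log2 scale (edgeR adjusted p = 0.0233, lost without emodin 4 and 8 at -0.37, 0.0656), and Nr1h3, which encodes the sterol-activated receptor LXR alpha, rose by 0.20 ± 0.06 (edgeR adjusted p = 0.0327, lost in 5 of 16 fits that left out 1 liver). Ctdnep1 and Cnep1r1, the phosphatase complex that activates lipins, had log2 fold changes of 0.08 ± 0.10 and -0.09 ± 0.07 (edgeR adjusted p = 0.619 and 0.437). Of 8 genes of droplet formation and VLDL loading, 0 passed (median -0.024). Plin2, a droplet coat protein, had 4 emodin livers above and 4 below the vehicle range (164 to 807 CPM in emodin, 251 to 413 CPM in vehicle livers), a difference of 0.61 ± 0.30 on the log2 scale (adjusted p = 0.191), and Cideb had one of -0.16 ± 0.08 (adjusted p = 0.176 by edgeR). The 4 livers with Plin2 above the vehicle range were emodin 2, 4, 5 and 8, those with the higher Isg15. Of the 12 fasting, clock and glucocorticoid genes, Fkbp5 rose by 0.85 ± 0.27 (edgeR adjusted p = 0.0479, lost in 13 of 16 fits that left out 1 liver), and Nr1d1 and Tsc22d3 fell by 0.99 ± 0.23 and fell by 0.73 ± 0.15 (edgeR adjusted p = 0.0138 and 0.00620).

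Patterns over single livers were matched for Gpam and Dgat2, the 2 of the 10 with the smallest p. By Pearson's r of log2 CPM deviations from the group means over 16 livers, the annotated genes most like Dgat2 were Kcnk5 (0.932), Abhd6 (0.915) and Ip6k1 (0.914), and those most like Gpam were Nicn1 (0.858), Paox (0.822) and Sc5d (0.768). These are the highest of all genes with at least 5 CPM and carry no test.

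The libraries held 28.3 to 48.2 M estimated counts in the emodin group and 28.7 to 38.6 M in the vehicle group (M, mega), so counting error was small for all of the 10 but Mogat1 and Lpin3. Of 6 hepatocyte markers, Alb fell by 0.50 ± 0.15 and Fgb rose by 0.60 ± 0.18 on the log2 scale (edgeR adjusted p = 0.0309 and 0.0354), calls lost in 6 and 8 of 16 fits that left out 1 liver. The summed level of the 6 ran from 60883 to 97585 CPM in emodin and from 91689 to 119761 CPM in vehicle livers. Alb alone, with means of 59544 CPM in emodin and 84492 CPM in vehicle livers, made up most of this sum. Ttr, Apoa1, Cps1 and Hnf4a did not pass, with log2 fold changes of -0.23, -0.040, -0.0049 and 0.36. Of 7 adipocyte markers, Lep was at 0 in all livers, Adipoq did not exceed 0.240 CPM in emodin and 0.723 CPM in vehicle livers, and Plin1 did not exceed 0.180 and 0.260 CPM. Cidec, which hepatocytes also express, rose by 1.80 ± 0.36 on the log2 scale (edgeR adjusted p = 0.00576). The summed adipocyte markers reached 27.9 CPM in emodin livers and 41.5 CPM in vehicle livers, which was vehicle 2 with 36.8 CPM of Fabp4. Of 10 immune markers 0 passed (124 to 309 CPM summed in emodin livers, 93.5 to 365 CPM in vehicle livers), with the smallest p for Cd3e (log2 fold change -1.24 ± 0.47, edgeR adjusted p = 0.0897) and Cd68 (0.85 ± 0.33, 0.101). Of 11 endothelial, stellate and bile duct markers Kdr fell by 0.45 ± 0.10 (edgeR adjusted p = 0.00918) and the other 10 did not pass. All 5 acute phase and interferon indicators rose, among them Lcn2, Saa1, Orm2 and Ifit1, with log2 fold changes from 4.01 to 5.93. With quality weights in voom, the calls of Lcn2, Orm2, Ifit1 and Isg15 were lost and that of Saa1 was kept. With the replicate block, those of Ifit1, Isg15, Alb and Fgb were lost, as was that of Nr1h3. The part of these other cells and states in the values of the 10 genes was not tested.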

How the data were processed

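Total liver RNA (1 µg) was made into libraries after 7 days of acclimation and 3 weeks of dosing, per the labels' protocols. The authors deposited 1 table of estimated counts, in whole numbers without scaling for depth or gene length, under a name that says FPKM. This unit was inferred from the values, in which 2 was commoner than 1 (632 to 751 against 161 to 207 entries a liver), so a count of 1 need not be 1 read. The submitters' processing notes list cutadapt 1.9.1, HISAT2, SAMtools 0.1.19, HTSeq 0.6.1, Cufflinks 2.2.1 and mm10. Which program made the values, its annotation and its use of strand are not given in the sources used here. All 16 numeric columns were used.

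The 27446 entries were filtered with filterByExpr, scaled with TMM and tested in edgeR 4.0.16 (R 4.3.3) with robust quasi-likelihood F tests and no term but group. P-values were adjusted by Benjamini-Hochberg over 14308 entries, with a threshold of 0.05. Rounding changed nothing. CPM are TMM-scaled, and SE is the absolute log2 fold change over the square root of F. The 3 ratios within a step were tested by exact two-sided permutation over livers. Alternatives were RLE factors, TMM without the 50 most abundant entries, no filter, DESeq2 1.42.0, limma 3.58.1 voom with quality weights, Ensembl genes only, a replicate block and each liver left out. The fit was also run on simulated data, with changes larger than those of the 10 genes and the same dispersion in both groups. That run thus does not bear on whether the 10 genes changed. The 10 genes and the other lists were chosen with earlier results of these data known. Named from each other list were the called genes (up to 4, smallest p first) or the 2 with the smallest p. Gpd1, Gk, Ctdnep1, Cnep1r1, Acsl4 and Isg15 were named beyond that rule for their role. Pck1 and the other uncalled genes set against Lpin1 were also beyond it, in a comparison added after the data were seen. So were the uncalled hepatocyte and adipocyte markers.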

Additional observations from a re-analysis of the deposited data

Results flagged for a closer look

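In 26 groups of 8 values (10 mRNAs and 3 ratios in 2 groups of livers), 3 held a liver whose gap to its neighbour, as a share of the group's range, was above Dixon's critical value. For independent groups of normally distributed values, chance flags about 1 in 20. The scan took CPM and ratios without logs. It was not run on the log2 scale on which the ratios were compared, so the flags hold for the scale without logs only. Lpin2 in emodin 5 was at 939 CPM, against 475 CPM in the next emodin liver. The ratio of Lpin2 to Lpin1 was 2.88 in emodin 5, against 1.65 in the next emodin liver. This flag shares the Lpin2 value of emodin 5 and is not independent of the one before. The same ratio was 1.96 in vehicle 1, the liver with the lowest Lpin1, against 1.19 in the next vehicle liver.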

How the results depend on the processing

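In each of 7 other analyses (scaling, filter, tool, entries tested, replicate block) and 16 fits without 1 liver, 0 of the 10 enzyme genes passed. Leaving out emodin 4 and 8, chosen after seeing the data, let 1 pass (Gpat4, 0.42) and turned the log2 fold changes of Agpat3 (0.0069), Lpin1 (0.108) and Dgat1 (0.047) above 0. Quality weights did the same for Lpin1 (0.113) and Dgat1 (0.030). Leaving out 1 liver gave Lpin1 from -0.28 to 0.032, above 0 without vehicle 8, and Lpin2 from -0.096 to 0.21, below 0 without emodin 5. The cause was not tested. All entries called numbered 1263 to 2532 over those 7 analyses, and 1246 (without emodin 4) to 2200 with 1 liver left out. Genes of the 5 neighbouring lists called were 8 to 11 and 8 to 12. The Gpam to Gpat4 log2 ratio ran from -0.42 (without emodin 8) to -0.24 with 1 liver left out, and was -0.53 without emodin 4 and 8, whose 2 ratios were the highest of the emodin livers, so that the larger gap follows from the choice. Over all entries tested, same-numbered livers did not clearly deviate together (r from -0.15 to 0.25, 2 of 8 closest to their own number). This check cannot show that the numbers pair nothing, since a pairing that moved few entries could be missed in it. With the replicate block, the number of the 10 genes called stayed at 0, entries called higher were 628 against 1102, and the ratio of Gpam to Gpat4 had an exact paired permutation p of 0.0469 at the same -0.32.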
